A study of Capra hircus with 2 samples.

Results

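PENK and NPY, the genes of 2 secreted neuropeptides, were described in cells of the fetal goat ovary. They were chosen by symbol, after earlier results of the same data had shown them in stromal cells, so their levels are given as a description. Each symbol matched 1 feature of the 27271 features in the deposited tables, ENSCHIG00000023682 for PENK and ENSCHIG00000007443 for NPY. Single cells of female goat (Capra hircus) ovaries were profiled at the embryonic stages labelled E125 (1 library) and E85 (1 library). No genotype, treatment, strain or number of fetuses is given for either library. The dissociation protocol in the labels speaks of testes, while the tissue label is ovary. Cells with germ cell and pregranulosa markers were found in both libraries.

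PENK encodes proenkephalin, a precursor that proteases cut into the opioid peptides Met-enkephalin and Leu-enkephalin. Enkephalins act mainly through the delta and mu opioid receptors (OPRD1, OPRM1). NPY encodes neuropeptide Y, which acts on the NPY1R, NPY2R and NPY5R receptors and is best known from sympathetic nerves, where it narrows blood vessels. Both peptides are best known from neurons and adrenal chromaffin cells, and both need prohormone convertases and an amidating or trimming enzyme to become active. The stroma of a fetal ovary is the mesenchyme around the germ cells and their supporting pregranulosa cells.

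The E125 library held 8346 cell barcodes with 49692252 unique molecular identifiers (UMIs, 1 for each captured transcript), and the E85 library held 4397 barcodes with 17748948 UMIs. After filters, 7023 cells remained at E125 and 3827 at E85, with medians of 3196 and 3101 UMIs per cell. Of the kept barcodes, 10 occurred in both libraries. Clustering was run without PENK and NPY, and cells were named from marker genes. Stromal-like cells numbered 4417 at E125 and 2670 at E85. All 11 stromal markers were found in them, with a summed level of 8882 UMIs per 1000000 UMIs of these cells (counts per 1000000, CPM) at E125 and 7520 CPM at E85. The myeloid marker list summed to 4.42 and 11.3 CPM in the same cells, and the glial list to 3.97 and 10.9 CPM. Perivascular markers, some of which stroma also expresses, summed to 1066 CPM at E125 and 669 CPM at E85, and germ cell markers to 352 and 189 CPM. The 13 neuronal and chromaffin markers summed to 318 CPM at E125 and 363 CPM at E85, of which STMN2, a microtubule gene, made 286 CPM at E125 and 357 CPM at E85. TH and DBH, enzymes of catecholamine synthesis in sympathetic neurons and chromaffin cells, had 0 UMIs in stromal-like cells of both libraries. With 1 library per stage, a difference between stages has no replicate check and cannot be told apart from a difference between 2 libraries. Intervals are exact 95% intervals and cover counting error only.

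PENK was highest in stromal-like cells at both stages, with perivascular-like and dividing cells next. Stromal-like cells held 2776 of its UMIs at E125, a level of 204 CPM (197 to 212), and 936 at E85, a level of 121 CPM (114 to 129). These cells were 62.9% of the kept cells and held 81.8% of the PENK UMIs at E125, and were 69.8% of the cells with 86.3% of the UMIs at E85. Perivascular-like cells, the mural cells around vessels, had 166 CPM (143 to 193) in 219 cells at E125 and 56.4 CPM (24.4 to 111) in 37 cells at E85. The perivascular level was 0.814 times the stromal level at E125 (0.696 to 0.947) and 0.465 times at E85 (0.200 to 0.920). It depended on the clusters: at E125 it was 47.4 CPM with stricter cell filters, and 99.8 to 111 CPM with finer or coarser clusters, each library clustered on its own, no filters or no doublet removal. Summed stromal markers in perivascular-like cells were 12687 CPM at E125 and 8848 CPM at E85. The 52 E125 perivascular-like cells with PENK had 13093 CPM of stromal and 6657 CPM of perivascular markers, against 12552 and 8570 CPM in the 167 without. The part of stromal RNA in the perivascular PENK level was not tested.

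Dividing cells, named from mitosis genes, had 52.1 CPM (41.4 to 64.8) at E125 and 70.3 CPM (49.2 to 97.3) at E85. Their stromal markers summed to 4746 CPM at E125 and 4931 CPM at E85, and their pregranulosa markers to 1655 and 105 CPM. The part of stromal cells in the dividing PENK level was not tested. Endothelial-like cells had 15.6 CPM (12.6 to 19.2) at E125 and 8.10 CPM (2.63 to 18.9) at E85, so the stromal level was 13.1 times the endothelial level at E125 and 15.0 times at E85. The 48 E125 endothelial-like cells with PENK had a median of 22910 UMIs and 1836 CPM of stromal markers, against 4651 UMIs and 802 CPM in those without, and the part of doublets was not tested. At the finer clustering, 73 of the 92 E125 endothelial PENK UMIs lay in a cluster of 109 cells at 37.3 CPM, and another of 539 cells had 5.78 CPM. Pregranulosa-like cells had 14.5 CPM (11.9 to 17.6) at E125 and 1.25 CPM (0.151 to 4.51) at E85, where 2 UMIs were counted. With that count set at the floor of 3 UMIs the ratio was 7.76 (counting interval 3.14 to 97.4), in a class where 14.2% of 7328 genes were 2-fold or more higher at E125 and 10.6% were 2-fold or more lower. At E125 the endothelial and pregranulosa levels did not differ beyond counting error, with a ratio of 1.08 (0.804 to 1.44). Germ cell-like droplets carried 5.14 CPM (3.85 to 6.72) at E125 and 5.30 CPM (2.43 to 10.1) at E85. Myeloid-like cells held 1 PENK UMI in 110 cells at E125 and 0 in 54 cells at E85, which allows up to 6.63 CPM.

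Among the clusters that no marker list named, an E125 cluster of 95 cells led by DNA replication genes (DTL, E2F8, TCF19) had 179 CPM of PENK (143 to 220) and 0 NPY UMIs. This was the E125 part of joint cluster 9. Its 90 E85 cells were named stromal-like, so the stromal class holds this cluster at E85 but not at E125. An unnamed E85 cluster of 226 cells led by HBAI, a globin gene, had 70.2 CPM of PENK and 46.5 CPM of NPY. There 23.9% of cells had a PENK UMI, with at most 5 in a cell, and 19.03% an NPY UMI, with at most 2. A cell with either gene there had a mean of 1.31 PENK UMIs or 1.09 NPY UMIs.

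**Figure D1:**
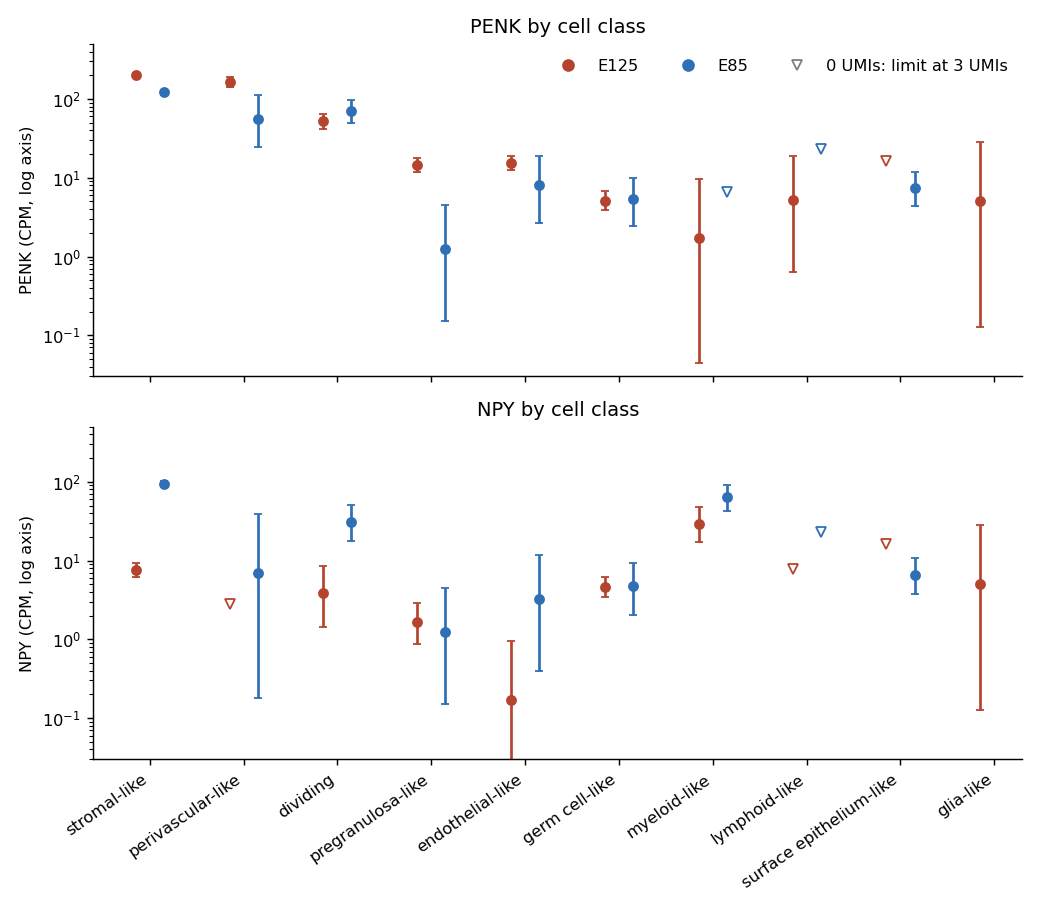
Level of PENK (top) and NPY (bottom) in each cell class, in CPM of the summed UMIs of the class on a log axis, with E125 left of E85 in each class. Bars are exact 95% Poisson intervals, open triangles mark a class with 0 UMIs at the limit of 3 UMIs, and classes under 20 cells are not drawn. The lower end of the E125 endothelial-like interval of NPY, 0.00430 CPM, lies below the axis. PENK is highest in stromal-like cells at both stages (204 and 121 CPM), and NPY in stromal-like cells lies at 7.65 CPM at E125 and 94.1 CPM at E85.

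NPY was highest in the stroma at E85 and low there at E125. Stromal-like cells held 104 NPY UMIs at E125, a level of 7.65 CPM (6.25 to 9.27), and 726 at E85, a level of 94.1 CPM (87.4 to 101). At E125 they held 54.7% of all NPY UMIs in the kept cells, and at E85 85.7%. Myeloid-like cells, which held next to no PENK, carried NPY at 29.5 CPM (17.2 to 47.2) at E125 and 64.1 CPM (42.9 to 92.1) at E85. The myeloid level was thus 3.86 times the stromal level (2.16 to 6.47) at E125 and 0.681 times (0.453 to 0.986) at E85. Perivascular-like cells had no NPY UMI at E125, which allows up to 2.79 CPM, and 1 at E85.

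The lowest NPY level in a class with a UMI was 0.170 CPM (0.00430 to 0.947) in E125 endothelial-like cells, from 1 UMI in 758 cells. Germ cell-like droplets had 4.65 CPM (3.43 to 6.17) at E125 and 4.72 CPM (2.04 to 9.29) at E85. At E125, 46 of their 48 NPY UMIs lay in the 76 droplets of 20000 or more UMIs, 33 of which held at least 1. The same droplets held 51 PENK UMIs. The germ cell droplets had 1.10 PENK UMIs for each NPY UMI at E125, against 26.7 in the stroma of that library. At E85 the 2 values were close, 1.125 in the germ cell droplets, from 9 PENK and 8 NPY UMIs, and 1.29 in the stroma. Pregranulosa-like cells had 1.68 CPM at E125 and 1.25 CPM at E85. Surface epithelium-like cells had no NPY UMI in 25 cells at E125 and 6.60 CPM (3.77 to 10.7) in 289 cells at E85.

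The NPY of the myeloid-like cells lay mostly in 1 piece of that class, and the level in the class depended on the clustering. Over 7 further settings of clusters and filters it was 0 to 31.9 CPM at E125 and 14.7 to 64.1 CPM at E85. A finer clustering split the class into cells led by C1QA, C1QB and C1QC, which encode complement C1q, and cells led by HLA-DRA and CD74, genes of antigen presentation, without C1q genes among their leading ones. HLA-DRA and CD74 were also among the 6 leading genes of the E125 C1q-led piece, and C1QA set the pieces apart, at 195 CPM in the HLA-DRA-led and 8085 CPM in the C1q-led piece at E125, and 9.49 and 9654 CPM at E85. At this finer clustering the marker rule gave the myeloid name to the C1q-led pieces only, with 66 cells at E125 and 16 at E85. The HLA-DRA-led pieces did not take that name, so the myeloid levels there, 0 and 14.7 CPM of NPY, left them out. At E125, 7 of 44 cells of the HLA-DRA-led piece had an NPY UMI, 17 UMIs in all, and none of 66 cells of the C1q-led piece. At E85, 15 of 38 cells of the HLA-DRA-led piece had one (39.5%, 24.0 to 56.6), and 2 of 16 cells of the C1q-led piece (12.5%, 1.55 to 38.3). The HLA-DRA-led piece also carried CLEC9A, a dendritic cell gene in human and mouse, at 888 CPM at E125 and 47.4 CPM at E85. Its COL1A1 level was 5.66 CPM at E125 and 31.6 CPM at E85, and PENK was at 0 UMIs in it at both stages. The 17 E85 myeloid-like cells with NPY had 436 CPM of stromal markers, against 218 CPM in the 37 without, and 6895 CPM of myeloid markers, against 13232 CPM. At E125 the 7 with NPY had less of the stromal markers, 197 CPM against 261 CPM in the 103 without. Their myeloid markers were 4466 CPM, against 9517 CPM. The part of stromal RNA in the myeloid NPY level was not tested. This split was chosen after the values were seen.

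Between the stages the genes differed in the stroma. NPY was 12.3-fold lower at E125 than at E85 (10.0 to 15.3), the 10th lowest ratio among 9919 genes with 50 or more summed UMIs. PENK at E125 was 1.68 times its E85 level (1.56 to 1.81), which is short of the 2-fold limit used to call a gene. Of the 9919 genes, 17.8% were 2-fold or more higher at E125 and 11.1% were 2-fold or more lower, with a median log2 ratio of -0.02. The log2 ratio of NPY was -3.62, and it stayed between -4.25 and -2.88 in 15 alternatives. The log2 ratio of PENK was 0.75 and depended on which cells were called stromal. It was 1.51 with finer clusters, 1.27 with stricter cell filters, 1.17 with each library clustered on its own and 0.16 over all kept cells, so the first 3 of these settings pass the 2-fold limit and the last does not. Over all kept cells, NPY stood at 4.17 CPM at E125 and 51.9 CPM at E85, and PENK at 74.5 and 66.5 CPM.

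Within the stroma, PENK was highest in the cluster richest in COL1A1, which encodes a chain of collagen I. The E125 cluster with the most COL1A1 (2452 CPM, 819 cells) had PENK at 670 CPM (639 to 702). The E85 cluster with the most COL1A1 (1346 CPM, 658 cells) had 288 CPM (264 to 314). These were different clusters of the joint clustering, 20 at E125 and 2 at E85, matched by COL1A1 alone. They also differed in other genes, such as COL1A2 (3650 CPM at E125, 1038 CPM at E85) and SFRP1 (129 and 5.04 CPM). In the remaining stromal clusters PENK was 89.7 CPM at E125 and 71.3 CPM at E85. The COL1A1-rich cluster thus had 7.47 times the PENK of the rest at E125 (6.91 to 8.09) and 4.04 times at E85 (3.55 to 4.61). Among E125 stromal clusters of 15 or more cells it also led in DLK1, LUM and ACTA2, with 293, 287 and 709 CPM. DLK1 is a membrane protein of immature mesenchyme, lumican (LUM) binds collagen fibrils, and ACTA2 is smooth muscle actin. The clusters were formed without PENK and NPY, and COL1A1 was picked to order them with the clusters' genes known. With coarser clusters the PENK ratio was 0.934 at E85, and over 7 settings it was 6.02 to 10.8 at E125. Below the leading E125 cluster, PENK did not keep the order of COL1A1. Cluster 21 had 953 CPM of COL1A1 and 104 CPM of PENK, and cluster 15 had 337 and 169 CPM. At E85, PENK rose in the order of COL1A1 over the stromal clusters of 50 or more cells.

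NPY was highest in the COL1A1-rich cluster at E85 and not at E125. At E85 it stood at 210 CPM (189 to 233) in the COL1A1-rich cluster and 59.3 CPM in the rest, a ratio of 3.55 (3.06 to 4.11). At E125 it was 7.82 CPM (4.84 to 11.96) in the COL1A1-rich cluster and 7.62 CPM in the rest. The E125 level was 26.9-fold lower than the E85 level in the COL1A1-rich clusters (17.3 to 43.9) and 7.78-fold lower in the rest (6.11 to 10.0). PENK in the COL1A1-rich clusters was 2.33 times as high at E125 as at E85 (2.11 to 2.57), against 1.26 times in the rest (1.12 to 1.41). These stage ratios set different clusters of the libraries against each other. The NPY ratio between clusters moved with the clustering: at E125 it was 0.215 to 1.56 over 7 settings, and at E85 it was 0.0893 with coarser clusters, 1.48 without cell filters and 7.24 with PENK and NPY allowed into the clustering.

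What NPY remained at E125 lay mainly in a different stromal cluster. Cluster 15, led by CCN3 and CORIN, held 72 of the 104 UMIs, a level of 22.4 CPM (17.5 to 28.2) in 1384 cells. A single cell held 30 of these UMIs. Cluster 16, the largest with 1783 cells and led by CRISP3, GALNT3 and GRIN2B, had 4 NPY UMIs (0.667 CPM) and 44.0 CPM of PENK. At E85, the largest cluster of 1813 cells had 65.5 CPM of PENK (58.7 to 72.8) and 63.4 CPM of NPY (56.7 to 70.6). The E85 part of cluster 9, 90 cells led by DNA replication genes, had 128 CPM of PENK (94.98 to 170) and 10.5 CPM of NPY (2.86 to 26.8). The E125 part of this cluster was left unnamed and is not in the stromal class.

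**Figure D2:**
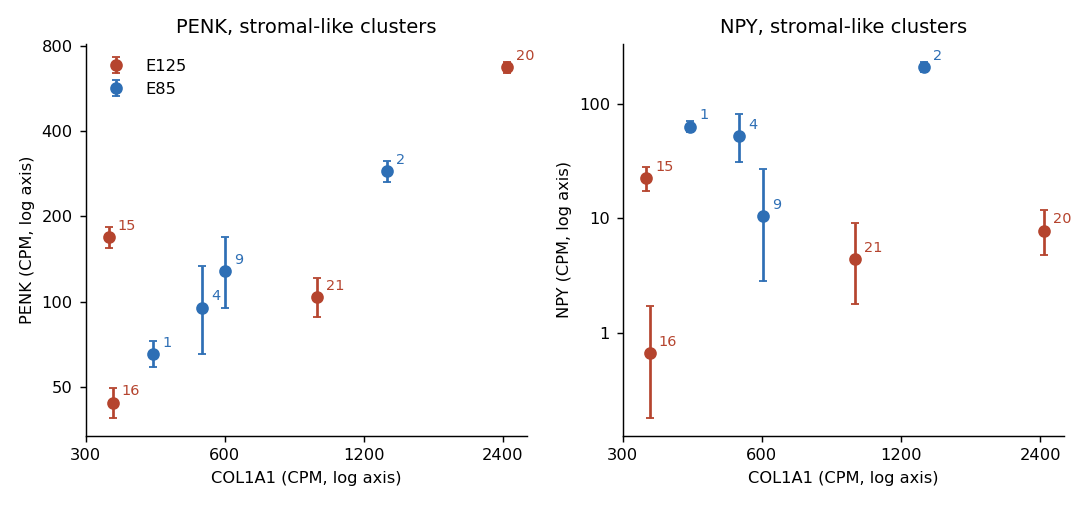
Level of PENK (left) and NPY (right) against COL1A1 in the stromal-like clusters of 50 or more cells, all in CPM on log axes, with E125 in red and E85 in blue. Bars are exact 95% Poisson intervals and numbers name the clusters. PENK is highest in the clusters richest in COL1A1 at E125 (670 CPM) and E85 (288 CPM), while NPY is highest in such a cluster at E85 only (210 CPM).

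Most stromal-like cells held neither gene. Of those with PENK, 51.2% held a single PENK UMI at E125 and 58.4% at E85, and of those with NPY, 80.7% held a single NPY UMI at E125 and 41.8% at E85. Cells were thinned to 2000 UMIs each to compare shares at equal depth, which left out 1078 stromal-like cells at E125 and 658 at E85. A PENK UMI was then found in 371 of 3339 cells at E125 (11.1%, 10.1 to 12.2) and in 212 of 2012 cells at E85 (10.5%, 9.23 to 11.96). The shares without thinning were 14.1% and 12.3%. In endothelial-like cells, taken for comparison, 11 of 661 thinned cells had a PENK UMI at E125 (1.66%, 0.834 to 2.96). At E85 it was 1 of 74 cells (1.35%, 0.0342 to 7.30). Median depths of endothelial-like cells were 4915 and 4996 UMIs, against 2780 and 2717 in stromal-like cells. An NPY UMI was found in 25 of 3339 thinned stromal-like cells at E125 (0.749%, 0.485 to 1.10) and in 115 of 2012 at E85 (5.72%, 4.74 to 6.82). Without thinning the NPY shares were 1.29% and 7.08%. Of the thinned endothelial-like cells, 0 of 661 had NPY at E125, which allows up to 0.454%, and 2 of 74 at E85 (2.70%, 0.329 to 9.42), an interval that holds the stromal share.

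Cells with many PENK UMIs were more frequent at E125, while the shares of cells with any were close with the clusters used here. With finer clusters the E125 share at 2000 UMIs per cell was 16.3%. It was also higher with stricter cell filters or each library clustered on its own. The E85 share stayed within its counting interval in these settings. Cells with 20 or more PENK UMIs numbered 31 at E125 (0.702% of stromal-like cells) and 4 at E85 (0.150%). Cells with 1 PENK UMI were 7.20% at E125 and 7.19% at E85. The 116 E125 cells with 5 or more UMIs held 71.4% of the stromal PENK, and 43 cells held 50% of it. At E85, 50 cells with 5 or more UMIs held 55.3%. The highest cell had 173 PENK UMIs at E125, 4.43% of all UMIs of that cell, and 61 at E85 (1.50%). Leaving out the 10 highest cells of each library gave a log2 ratio of 0.76.

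NPY showed the same shape at E85. The 44 E85 cells with 5 or more NPY UMIs held 64.9% of the stromal NPY, and the highest cell had 37 UMIs. At E125, 2 cells had 5 or more UMIs, with 30 and 7. Without the 10 highest cells of each library the NPY log2 ratio was -4.21. The Fano factor, the variance of the thinned counts over their mean, is about 1 for counts spread evenly over cells. It was 19.1 for PENK at E125, the highest among 1094 genes of like mean, whose median was 1.06. It was 6.53 for PENK at E85, rank 4 among 1529 genes. NPY had 7.95 at E85, rank 2 among 1896 genes. At E125 NPY had 15.2, which rests on a single cell with 30 UMIs, and 2.48 without that cell. Without the highest cell of each, the other values were 12.8 for PENK at E125, 4.59 for PENK at E85 and 7.03 for NPY at E85.

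**Figure D3:**
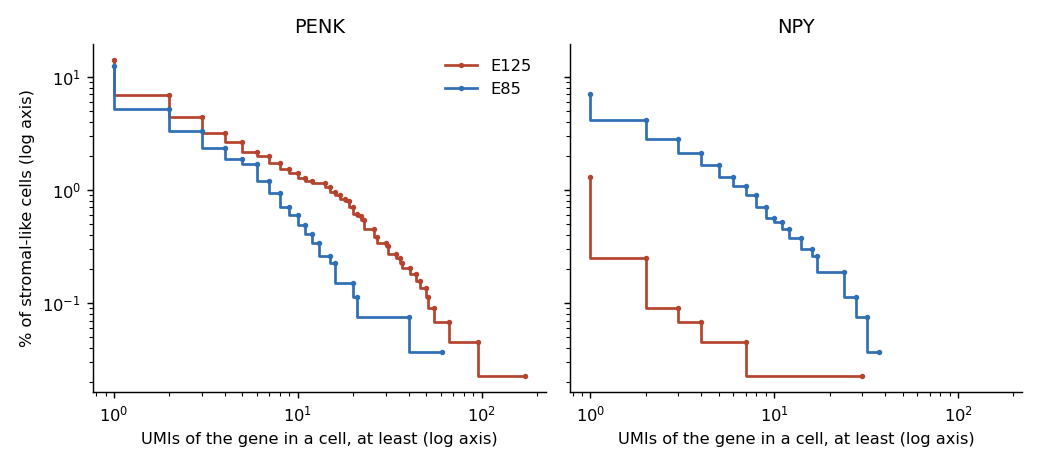
Share of stromal-like cells (y axis, %, log axis) that hold at least a given number of UMIs (x axis, log axis) of PENK (left) or NPY (right), unthinned, with E125 in red and E85 in blue. The PENK lines start near each other at 1 UMI (14.1% and 12.3%) and part above 5 UMIs, while the E125 line of NPY starts at 1.29% and the E85 line at 7.08%.

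The cells with PENK and those with NPY were largely different cells, and those with both were about as many as the product of the shares. At E125, 8 of 4417 stromal-like cells had both, against 8.01 from the product of the shares, a ratio of 0.998 (0.431 to 1.97). At E85, 23 of 2670 cells had both, against 23.3 from the product, a ratio of 0.988 (0.626 to 1.48). Of the E85 cells with PENK, 6.99% had NPY, and of those without PENK, 7.09%. At 2000 UMIs per cell, 5 cells had both against 2.78 at E125 (1.80, 0.584 to 4.20) and 14 against 12.1 at E85 (1.16, 0.632 to 1.94). The intervals hold both more and less overlap than the product.

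Inside the E85 clusters the overlap was uneven. In the COL1A1-rich cluster, where both genes were highest, 9 cells had both against 18.3 from the product, a ratio of 0.491 (0.225 to 0.932). In the largest E85 cluster 14 had both against 8.19, a ratio of 1.71 (0.934 to 2.87). Summed over the products of the single clusters, the E85 ratio was 0.825 (0.523 to 1.24). These 2 clusters were singled out after their values were seen.

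The E85 cells rich in one gene held the other about as often as cells without the first. At E85, 3 of the 50 cells with 5 or more PENK UMIs had NPY (6%), against 7.09% of cells without PENK, and 6 of the 44 cells with 5 or more NPY UMIs had PENK (13.6%), against 12.3% of cells without NPY. At E125, 3 of the 116 cells with 5 or more PENK UMIs had NPY (2.59%), against 1.29% of cells without PENK. Most stromal-like cells lacked NPY in any case, 98.7% at E125 and 92.9% at E85. The 10 cells with the most PENK at E125, with 37 to 173 UMIs, all had 0 NPY UMIs. Of the 10 such cells at E85, with 12 to 61 PENK UMIs, 9 had none and 1 had 2 NPY UMIs. Of the 10 cells with the most NPY at E85, with 14 to 37 UMIs, 9 had no PENK and 1 had a single PENK UMI. One E85 cell held 5 or more UMIs of each gene, with 8 of PENK and 7 of NPY, against 0.824 cells from the product. Of the 23 E85 cells with both, 15 had a single UMI of at least one gene.

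**Figure D4:**
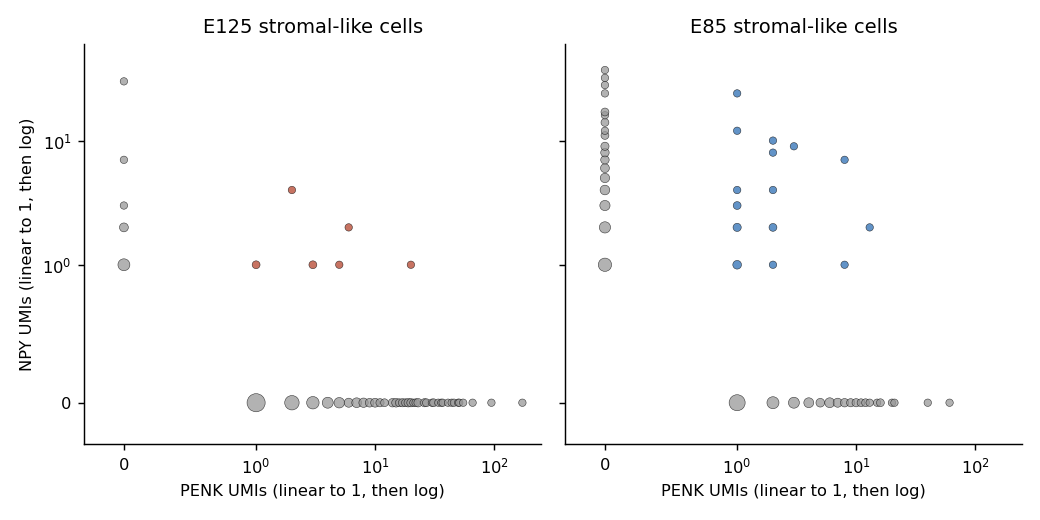
PENK UMIs (x axis) and NPY UMIs (y axis) of each stromal-like cell with a UMI of either gene, at E125 (left) and E85 (right), on axes linear to 1 and logarithmic above. Coloured points are combinations with both genes (8 cells at E125, 23 at E85), grey points hold one gene, and larger points stand for more cells. Cells of many UMIs lie along the axes.

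The E125 cells with PENK also carried more matrix and mesenchymal transcripts. Cells with PENK were set against cells without either gene, all thinned to 2000 UMIs, over 7180 genes with 50 or more UMIs. Of these, 1.28% were 2-fold or more higher in PENK cells and 3.79% were 2-fold or more lower. Of 26 measured genes of the stromal and mesenchymal list, 6 were higher (IGFBP3, LUM, OGN, DLK1, COL1A1 and SFRP1) and 1 was lower (CA3). DLK1 was 4.51-fold higher (3.70 to 5.47), LUM 3.46-fold (2.89 to 4.13) and SFRP1, a secreted WNT inhibitor, 3.76-fold (2.85 to 4.94). RSPO3, a WNT amplifier, was 4.89-fold higher (3.05 to 7.74), from 32 UMIs in PENK cells. Among the perivascular markers, 1 of 8 was higher, ACTA2, and the list summed to 1778 CPM in PENK cells and 947 CPM in cells without either gene. The summed neuronal and chromaffin markers were 198 CPM in PENK cells and 334 CPM in cells without either.

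Part of this profile went with the cluster. Of the thinned PENK cells, 47.2% lay in the COL1A1-rich cluster at E125, against 16.3% of cells without either gene. Compared within that cluster, DLK1 was 1.72-fold, LUM 1.69-fold and SFRP1 1.57-fold higher in PENK cells. RSPO3 was 1.96-fold higher there, and 30 of its 32 UMIs in PENK cells lay in that cluster. Outside it DLK1 was 3.08-fold, LUM 2.19-fold and SFRP1 2.52-fold higher. The highest ratio, 97.1-fold for the chemokine CCL19, came from few cells: unthinned, 1 PENK cell held 152 CCL19 UMIs and another 43, of 204 in all PENK cells without NPY. CXCL9, another chemokine, was 3.81-fold higher, and unthinned 1 PENK cell held 52 of the 103 CXCL9 UMIs of PENK cells without NPY. CXCL9 was found in 3.0995% of those cells, against 2.16% of cells without either gene. Further genes high in PENK cells at E125 were MKX, LRP1B, PTGFR and ST6GAL2, at 3.72 to 4.57 times. Within the COL1A1-rich cluster LRP1B was 1.75-fold and ST6GAL2 1.99-fold higher, with 35 of 35 and 21 of 22 UMIs of PENK cells there. Among the 5 lowest, ATG10, GCLC, STAT2 and CACNB2 were 3.63-fold to 4.05-fold lower from 4 to 7 UMIs each in PENK cells, and TNFSF10 had 2 UMIs there, a ratio of 0.227 at the floor (counting interval 0.0181 to 0.561).

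The PENK cells at E85 were compared in the same way. Of 5678 genes, 0.669% were 2-fold or more higher in PENK cells and 4.21% were 2-fold or more lower. LUM was the only one of 23 measured stromal and mesenchymal genes that was higher, and none was lower. LRRN3, a leucine-rich repeat membrane protein, was 2.87-fold higher (2.02 to 4.02). FRMD3 was 3.34-fold higher from 15 UMIs (1.70 to 6.25), and LRP1B, also high at E125, 2.80-fold from 14 UMIs (1.41 to 5.27). CRABP1, a retinoic acid-binding protein, had 122 UMIs in cells without either gene and 0 in PENK cells, which is at least 5.07-fold lower at a floor of 3 UMIs. Of the PENK cells 43.9% lay in the COL1A1-rich cluster, against 20.1% of cells without either. Within that cluster LRRN3 was 1.81-fold higher in PENK cells, and outside it 2.24-fold. Of their UMIs in PENK cells, 12 of 15 for FRMD3 and 13 of 14 for LRP1B lay in that cluster. Unthinned, LRRN3 stood at 80.5 CPM in cells with PENK alone and 75.4 CPM in cells with NPY alone, against 41.4 CPM in cells without either gene.

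The E85 cells with NPY had more LUM, and fewer UMIs of 3 other genes of the stromal and mesenchymal list. Of 5551 genes, 1.96% were 2-fold or more higher in NPY cells than in cells without either gene, and 3.8% were 2-fold or more lower. Of 23 measured stromal and mesenchymal genes, LUM was higher, and MGP, POSTN and WNT5A were lower. POSTN, the matrix protein periostin, was 5.10-fold lower, with 5 UMIs in NPY cells against 377. Unthinned, 4.82% of cells with NPY alone had a POSTN UMI, at most 3 UMIs in a cell, and 6.53% of cells without either gene, with up to 44 UMIs in a cell. MGP, an inhibitor of calcification, had 3 UMIs in NPY cells, a ratio of 0.228 (0.0467 to 0.678). NELL2, a secreted glycoprotein of neurons, was 2.92-fold higher (1.92 to 4.31), and tenomodulin (TNMD), a tendon and ligament gene, 3.49-fold (1.93 to 5.98). Of the NPY cells 47.0% lay in the COL1A1-rich cluster, against 20.1% of cells without either gene. Within that cluster NELL2 was 1.36-fold and TNMD 2.63-fold higher, and outside it NELL2 was 4.00-fold higher. Unthinned, cells with PENK alone also had more of both than cells without either gene. TNMD stood at 41.3 CPM against 24.1 CPM, and NELL2 at 93.9 CPM against 53.1 CPM. For the 25 thinned NPY cells at E125 no gene is named, since the floor alone passes 2-fold for many genes there.

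Of the listed enzymes that make peptides from precursors, the stroma carried the trimming and amidating ones. Of 5 measured genes of the processing and granule list, 4 were 2-fold or more higher at E125 than at E85 in stromal-like cells, and 0 were lower. Over all genes, 17.8% were 2-fold or more higher and 11.1% were 2-fold or more lower. CPE, the carboxypeptidase that trims cut peptides, had 84.5 CPM at E125 and 31.6 CPM at E85, a ratio of 2.67 (2.32 to 3.08). PAM, which amidates peptides such as neuropeptide Y, had 109 CPM at E125 and 28.9 CPM at E85, a ratio of 3.76 (3.26 to 4.34). CHGA, a granule protein, had 28.1 CPM and 2.98 CPM, and PCSK1N, which encodes the convertase inhibitor proSAAS, 7.95 CPM and 1.04 CPM. Other classes of the E125 library had more of both: CHGA stood at 172 CPM in pregranulosa-like cells, and PCSK1N at 247 CPM in surface epithelium-like and 178 CPM in germ cell-like cells. Oocyte genes were also higher in the E125 stromal-like cells, ZP3 at 138 CPM and 26.6 CPM at E85, FIGLA at 41.3 and 5.45 CPM, and ZP4 at 20.02 and 2.72 CPM. Of 12 measured germ cell markers, 5 were 2-fold or more higher there and 0 were lower, against 17.8% and 11.1% of all genes. The part of RNA from other cells in these ratios was not tested. CPD, a carboxypeptidase of the secretory pathway, had 35.8 CPM at E125 and 27.4 CPM at E85. The convertases on the list, PCSK1, PCSK2 and FURIN, were close to undetected in the stroma, and no other convertase was looked at. PCSK1 had 1.18 CPM at E125 and 1.82 CPM at E85 in stromal-like cells, but 90.7 and 83.6 CPM in pregranulosa-like cells and 483 and 212 CPM in surface epithelium-like cells. The surface epithelium-like values of PCSK1 rest on 88 UMIs in 25 cells at E125 and 513 UMIs in 289 cells at E85. With coarser clusters that class held 311 cells at E125, and its PCSK1 level was not recomputed there. PCSK2 had 11 UMIs among all kept cells at E125 and 18 at E85. FURIN had 1.40 CPM at E125 and 0.519 CPM at E85 in stromal-like cells.

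Receptors for the enkephalins were close to undetected. OPRM1 had 0 UMIs in all kept cells of both libraries, which allows up to 0.0659 CPM at E125 and 0.184 CPM at E85. OPRD1 had 3 UMIs at E125 and 0 at E85, and the kappa receptor OPRK1 had 1 UMI at E125 and 0 at E85. OGFR, which binds Met-enkephalin and is unrelated to the classical opioid receptors, was in every class compared, with 52.8 CPM at E125 and 60.7 CPM at E85 in stromal-like cells. The ratio of OGFR between stages was 0.871 (0.774 to 0.980). Transcripts of a receptor can be too few for this depth, so these zeros limit the level and not its presence.

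NPY receptors were highest outside the stroma, in perivascular-like, pregranulosa-like and surface epithelium-like cells. NPY1R had 72.5 CPM at E125 (78 UMIs) and 106 CPM at E85 (15 UMIs) in perivascular-like cells, and 17.2 and 23.7 CPM in pregranulosa-like cells. Surface epithelium-like cells had 23.5 CPM at E85, from 57 UMIs. In stromal-like cells NPY1R was 0.515 CPM at E125 and 3.11 CPM at E85. NPY5R was also highest in perivascular-like cells, with 14.9 CPM (16 UMIs) at E125 and 14.1 CPM (2 UMIs) at E85. In pregranulosa-like cells it had 8.52 CPM at E125 (61 UMIs) and 1.87 CPM at E85 (3 UMIs). NPY2R had 0 UMIs in both libraries.

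**Figure D5:**
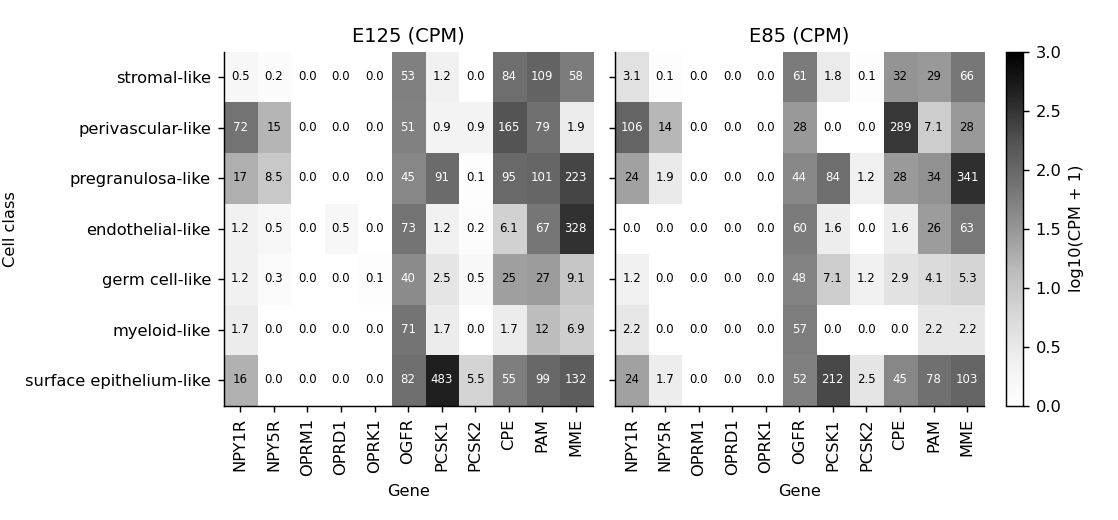
Levels in CPM (numbers, with shade as log10 of CPM + 1) of NPY receptors, opioid receptors, processing enzymes and the peptidase MME (columns) in 7 cell classes (rows), at E125 (left) and E85 (right). NPY1R is highest in perivascular-like cells (72.5 and 106 CPM), PCSK1 in surface epithelium-like cells (483 and 212 CPM, in 25 and 289 cells), and OPRM1 is at 0 in every class.

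Peptidases that cut enkephalins or neuropeptide Y were in the stroma too. Of 7 measured genes of this list, 3 were 2-fold or more higher at E125, against 17.8% of all genes, and 0 were lower, against 11.1%. DPP4, which shortens neuropeptide Y, had 22.7 CPM at E125 and 4.80 CPM at E85, a ratio of 4.73 (3.35 to 6.84). ECE1, an endothelin-converting enzyme that also cuts other peptides, had 83.3 CPM and 31.8 CPM, and PREP, a prolyl endopeptidase, 41.1 CPM and 17.6 CPM. MME, the neprilysin that degrades enkephalins, had 58.4 CPM at E125 and 65.7 CPM at E85 in stromal-like cells. Endothelial-like cells had 328 CPM at E125 and 63.2 CPM at E85, and pregranulosa-like cells had 223 and 341 CPM.

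The other 3 opioid precursors had few UMIs in the stroma. PNOC, the nociceptin precursor, had 0.442 CPM at E125 and 0.259 CPM at E85 in stromal-like cells, and 112 and 124.7 CPM in endothelial-like cells. POMC, the precursor of melanocortins and beta-endorphin, had 5.15 CPM at E125 and 10.4 CPM at E85 in the stroma, a ratio of 0.497 (0.355 to 0.693). PDYN, the dynorphin precursor, had 0.957 and 0.778 CPM there. PYY, a relative of NPY, had 6 UMIs among all kept cells at E125 and 9 at E85. Of 10 measured precursors of other peptide hormones, 2 were higher at E125 in the stroma and 1, POMC, was lower, close to the shares over all genes (17.8% higher and 11.1% lower). NTS, the neurotensin precursor, had 64.7 CPM at E125 and 26.7 CPM at E85, a ratio of 2.42 (2.08 to 2.83). ADM, the vasodilator adrenomedullin, had 151 CPM at E125 and 147 CPM at E85.

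Over 16 class sums (classes of 50 or more cells in a library), the genes whose log2 level was most like that of PENK, among 4799 genes, were COL6A3, OLFML1, BGN, PCOLCE and AGTR1, with Pearson r between 0.887 and 0.903. Most like NPY were FXYD6, TBC1D5, ASAH1, PSAP and PLTP, with r between 0.699 and 0.799. FXYD6, ASAH1, PSAP and PLTP had their highest level in E85 myeloid-like cells. PENK and NPY had an r of -0.029 with each other. The class sums share 2 libraries and differ in depth, so these values are given as a description.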

How the data were processed

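Single-cell RNA was measured with 10x libraries of E125 ovary (1 library) and E85 ovary (1 library). The authors deposited raw UMI counts per gene and cell barcode, written by Cell Ranger 6.0.0 per the file headers, while the submitters' processing notes name Cell Ranger 3.1. The lowest barcode held 500 UMIs. PENK, NPY and the gene lists were chosen with earlier results of these data known. Which genome build and gene annotation they used is not given in the sources used here.

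Barcodes with at least 500 genes and at most 20% mitochondrial UMIs were kept (Python 3.11.15, scanpy 1.11.5). Scrublet's own threshold called 0 and 2 doublets at E125 and E85, so the highest scores at the expected rate were removed instead (557 and 155 barcodes). Both libraries were clustered together on 2000 variable genes without PENK and NPY (30 components, 15 neighbours, Leiden resolution 1.0). Marker levels were divided by the highest level in a cluster of the same library, for markers reaching 20 CPM. A cluster of 15 or more cells was called X-like for the list with the highest mean of these shares. That mean had to reach 0.3, and at least 3 markers a share of 0.25. Smaller clusters took the name of the same cluster in the other library, if it had 15 or more cells there. Other clusters stayed unnamed. A cluster was called dividing where at least 3 of its 10 leading genes were mitosis genes, a rule set after the clusters were seen. Names rebuilt this way can differ from the authors' own.

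UMIs were summed per class and stage. With 1 library per stage no test was run and no p-value is given. Levels have exact Poisson intervals, ratios exact conditional intervals and shares exact Clopper-Pearson intervals. A gene was measured with 50 or more UMIs over the compared sums, and called at 2-fold. Counts under 3 UMIs were set to 3 for a ratio, and a count of 0 allows up to 3 UMIs. Named genes were PENK, NPY, the members of fixed lists, the 5 most alike by class sums, and the 10 highest and 5 lowest in cells with either gene, beside leading genes of clusters. Alternative scalings used edgeR 4.0.16 and DESeq2 1.42.0 (R 4.3.3). The steps were tested on simulated data.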

Additional observations from a re-analysis of the deposited data

How the results depend on the processing

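The stage ratios of PENK and NPY in stromal-like cells, the gene counts at 2-fold, the shares and the co-detection were recomputed with other clusters, filters, scalings or depths, and neither stage ratio turned its direction. Class levels and the COL1A1 contrast were recomputed with other clusters and filters alone, and the ratios of other genes and the genes of PENK or NPY cells were not recomputed. The log2 ratio of PENK in the stroma, 0.75 as reported, was 1.51 with finer clusters, 1.17 with each library clustered on its own, 1.27 with at least 1000 genes and at most 10% mitochondrial UMIs, 0.86 as a mean over cells and 0.16 over all kept cells. That of NPY, -3.62 as reported, was -2.88, -3.12 and -4.25 in the first 3 of these settings, -3.26 as a mean over cells, -3.32 in thinned cells and -4.21 without the 10 highest cells. Genes 2-fold lower at E125 numbered 2130 with any UMI, against 1099, and genes 2-fold higher numbered 2889 over all kept cells, against 1764. The median log2 ratio of all genes moved by more than 0.1 over all kept cells, by 0.11.

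The share of stromal-like cells with PENK at E125 was 16.3% with finer clusters, 12.8% with each library alone, 13.5% with the stricter filters, 8.08% over all kept cells, 14.1% unthinned, 7.65% at 1000 UMIs, 13.5% at 3000 UMIs and 4.91% at 2 or more UMIs. At E85 it was 8.06% over all kept cells, 12.3% unthinned, 6.23% at 1000 UMIs, 13.0% at 3000 UMIs and 4.57% at 2 or more UMIs. In the other settings, which include finer clusters, stricter filters and each library alone, the E85 share stayed within its counting interval. The NPY share at E125 was 1.23% with finer clusters, 1.29% unthinned and 0.210% at 2 or more UMIs, and at E85 it was 7.08% unthinned, 4.66% at 1000 UMIs and 3.13% at 2 or more UMIs. Co-detection over its product ranged over 0.825 to 2.91 at E125 and 0.790 to 1.39 at E85. Apart from depth and the UMI limit, which set a share by construction, the cause of these shifts was not tested. Leaving out the highest cells, keeping dividing clusters in their marker class, a further random draw and the Fano factor without its highest cell were chosen after seeing the data. No paired analysis was possible because each stage has 1 library. Classes under 100 cells at E85, such as perivascular-like and myeloid-like cells, gave levels with wide intervals.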

Other observations

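Other peptide precursors marked other cells of the same ovaries. TAC3, the neurokinin B precursor, was highest in germ cell-like cells, with 345 CPM at E125 and 187 CPM at E85, against 18.5 and 16.5 CPM in stromal-like cells. KISS1, the kisspeptin precursor, had 190 CPM in germ cell-like cells and 3.24 CPM in stromal-like cells at E125. EDN1, the endothelin-1 precursor, had 139 CPM at E125 and 104 CPM at E85 in endothelial-like cells. GAL, the galanin precursor, was highest in perivascular-like cells, with 40.9 CPM at E125 (44 UMIs) and 42.3 CPM at E85 (6 UMIs).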
